A study of Mus musculus with 46 samples.

Results

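Of the candidate cis-regulatory elements (cCREs) of the mouse Klf2 locus, 5 named E029, E065, E067, E087 and E103 were followed across promoters, strands and positions in reporter plasmids. They were chosen by name because their measured effect from a position downstream of the reporter differed between promoters, so their Downstream boost indices are given below as a description, without a test. They made up 51 of the 1364 Downstream constructs that joined a cCRE to a promoter, 5 constructs of a Downstream vector without promoter, and 51 of the 3758 Klf2 constructs with a cCRE upstream of a promoter. The plasmids were barcoded and brought by nucleofection into mouse embryonic stem cells of the E14TG2a line, kept in 2i+LIF medium, and RNA was taken 24 h later. The Downstream libraries were transfected as 1 mix and the Klf2 Upstream libraries in another mix together with Nanog and negative control libraries, with 3 biological replicates of each mix. All cells were of this one line and untreated, so each comparison was between constructs within a mix. Activity is a ratio of barcodes in reporter RNA (cDNA) to barcodes in the plasmid DNA (pDNA). The boost index sets that activity, on the log2 scale, against the median construct with the same promoter, so 1 stands for a doubling.

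An enhancer is a stretch of DNA, bound by transcription factors, that raises transcription from a promoter at a distance and in the classical definition in both orientations. Whether any enhancer can act on any promoter, or only on some, is the question of enhancer-promoter compatibility, which this series addressed with isolated fragments. Klf2 encodes a Krüppel-like transcription factor of the network that keeps mouse embryonic stem cells pluripotent. In the Downstream assay a cCRE lay behind the reporter and could raise or lower the activity of the promoter from there. In the Upstream assay it lay directly in front of the promoter.

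The 5 cCREs spread over chromosome 8, with fragment ends 450 bp apart, and coordinates are given as in the tables, for which the submitters' processing notes name mm10. E029 lay at chr8:72115240-72115690, in no RefSeq gene of GRCm38.p6, with Gm39196 nearest at 2761 bp. E065, at chr8:72365745-72366195, and E067, at chr8:72376273-72376723, both lay within Eps15l1, which encodes an endocytic adaptor protein. E087, at chr8:72590167-72590617, overlapped the long noncoding RNA gene Gm51538. E103, at chr8:72724601-72725051, lay within Sin3b, which encodes a transcriptional corepressor scaffold. Only gene spans were used, so exons and introns were not told apart. The 10 Downstream promoters carried the starts of Zfp882 (P001), Rab8a (P009), Fam32a (P013), Ap1m1 (P014), Klf2 (P016), Eps15l1 (P017), Calr3 and 1700030K09Rik (P018), Cherp (P019), Med26 (P021) and Smim7 and Tmem38a (P022).

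The promoter sequences below belong to those with which 1 of the 5 cCREs reached a Downstream boost index of 1 or more. They are windows from RefSeq of GRCm38.p6, of 250 bases before to 50 bases after an annotated start, trimmed to the tested fragment and printed 5' to 3' on the gene's strand. The P018 window reaches 209 bases before the start of Calr3 in the table of gene spans, and the others printed 250. A window was found for 9 of the 10 promoters, and P014 is named only. Capitals mark matches, on either strand, to any of 10 motifs: ATGCAAAT (POU octamer), AACAATG (SOX), AAGGTCA (ESRRB site), GGGNGTGG (KLF), GGGCGG (GC box), CCGGAAG (ETS), TTCNNNGAA (STAT), GCGCATG (NRF1), TGACTCA (AP-1) and CACGTG (E box).
P018 (Calr3, minus strand, chr8:72443729-72444028): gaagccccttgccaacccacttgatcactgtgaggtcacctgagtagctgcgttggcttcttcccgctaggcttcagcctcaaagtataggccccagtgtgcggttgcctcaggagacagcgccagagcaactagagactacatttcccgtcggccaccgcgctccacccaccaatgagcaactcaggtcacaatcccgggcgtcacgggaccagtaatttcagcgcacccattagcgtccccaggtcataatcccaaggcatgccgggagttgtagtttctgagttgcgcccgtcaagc
P013 (Fam32a, plus strand, chr8:72219495-72219794): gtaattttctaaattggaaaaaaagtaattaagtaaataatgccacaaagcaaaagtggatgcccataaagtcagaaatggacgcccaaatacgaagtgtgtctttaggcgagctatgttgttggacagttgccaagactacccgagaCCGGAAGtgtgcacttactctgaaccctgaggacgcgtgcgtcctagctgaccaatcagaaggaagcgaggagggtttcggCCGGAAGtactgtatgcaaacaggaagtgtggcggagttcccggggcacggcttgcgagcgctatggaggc
P016 (Klf2, plus strand, chr8:72318812-72319107): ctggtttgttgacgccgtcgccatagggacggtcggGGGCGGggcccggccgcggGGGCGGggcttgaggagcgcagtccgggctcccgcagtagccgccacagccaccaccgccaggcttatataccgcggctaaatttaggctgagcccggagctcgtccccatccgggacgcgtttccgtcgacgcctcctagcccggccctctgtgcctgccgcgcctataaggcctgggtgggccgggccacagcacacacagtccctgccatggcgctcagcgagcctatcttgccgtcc
P021 (Med26, minus strand, chr8:72548261-72548560): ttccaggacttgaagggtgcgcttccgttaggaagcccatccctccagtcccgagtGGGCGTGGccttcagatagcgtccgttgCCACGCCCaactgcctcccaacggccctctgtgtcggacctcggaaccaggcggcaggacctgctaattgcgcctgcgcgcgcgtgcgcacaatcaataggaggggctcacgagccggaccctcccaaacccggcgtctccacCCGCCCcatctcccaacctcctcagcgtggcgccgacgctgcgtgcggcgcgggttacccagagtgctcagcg
P022 (Smim7, minus strand, chr8:72570999-72571294): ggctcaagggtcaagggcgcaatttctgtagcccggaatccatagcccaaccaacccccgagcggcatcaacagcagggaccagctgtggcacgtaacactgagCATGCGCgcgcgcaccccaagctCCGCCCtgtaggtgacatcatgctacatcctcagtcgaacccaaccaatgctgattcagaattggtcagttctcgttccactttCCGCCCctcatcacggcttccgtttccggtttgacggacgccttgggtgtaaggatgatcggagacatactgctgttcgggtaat

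A GC box was in 3 of these 5 windows and in 2 of the 4 windows of the other promoters (P017 and P019 of P001, P009, P017 and P019). That of P018, with which 3 of the cCREs were high, held none of the 10 motifs and was 58.0% GC. The P001 window also held none of them, and the highest Downstream index of the 5 cCREs with P001 was 0.63. The P013 window held 2 ETS matches at 49.3% GC, the P016 window 2 GC boxes at 69.9% GC, the P021 window 2 KLF matches and 1 GC box at 67% GC, and the P022 window 2 GC boxes and 1 NRF1 match at 56.8% GC. Among all 32851 promoter windows of the reference table, 35.7% held a GC box, 17.6% the KLF string, 8.86% the ETS string and 3.91% the NRF1 string. The remaining 6 strings were each in 1.74% to 8.30% of those windows.

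Downstream, the 5 cCREs covered the range from a 4.17-fold gain to a loss to 0.482 of the median construct. An index of 1 or more was reached by 8 of their 51 promoter constructs, where 3.08% of all 1364 cCRE constructs did, and an index of -1 or less by 1 of them, against 2.20% of all. Of the 361 shuffled and random control constructs with a promoter, 8.31% reached 1 or more and 5.26% -1 or less. The counts of the 5 cCREs rest on the values that chose them. Another 25 of the 51 constructs lay within 0.3 of 0. The median index was 0.10 for the 5 cCREs and 0.02 for all cCRE constructs. The median SD of the index over replicates was 0.083 over the 51 constructs, higher than the 0.054 over all 1364 cCRE constructs. After averaging strands and removing each promoter's mean, the variance over promoters placed E029 (0.53), E067 (0.35), E087 (0.21), E103 (0.17) and E065 (0.13) at ranks 1, 2, 3, 4 and 6 of 80 cCREs with at least 3 promoters. E001 (0.14) and E042 (0.13), next in that order at ranks 5 and 7, were not among those chosen.

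The Downstream background was measured with 20 control sequences, 15 shuffled and 5 random, on both strands. Controls and cCREs of a vector came from separate sub-libraries, so an insert's kind and its sub-library cannot be told apart. Of the 51 constructs, 7 exceeded every control of their vector, against 5.43% of all cCRE constructs. These were E029+ with P001, P013 and P018, E065+ with P018, E065- with P001, and E087- with P001 and P018, where + and - give the strand of the cCRE. The P001 vector had only 10 controls, while the other promoter vectors had 32 to 40. Those of P001 had a median index of -0.80 and a highest of 0.0071, where E087- stood at 0.010. Against the P001 vector alone, the log2 differences were 0.0018 for E029+, 0.32 for E065- and -0.30 for E087-. Exceeding every P001 control was therefore not the same as exceeding the vector. Single control inserts were as high as several of the cCREs, and their number is given beside the highest and lowest values below.

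E029 was measured only on the plus strand, with 7 promoters, and was high with P018 and P013. Joined to P018, it gave activities of 3.93, 4.27 and 4.87 in replicates 1, 2 and 3. The vector with P018 alone gave 1.22, 1.29 and 1.40, so all 3 replicates lay above the vector without overlap. The boost index was 2.06 ± 0.08 (SD, n = 3), a 4.17-fold gain over the median construct. It was the highest of 149 cCRE constructs with that promoter and above all 40 controls. Against the vector alone the log2 difference was 1.74. With P013 the activities were 2.70, 2.18 and 2.31, and the index of 1.29 ± 0.08 (SD, n = 3) was also the highest, of 146. With the other 5 promoters the index stayed between 0.13 and 0.32. The lowest was that with P017, whose activities of 1.61, 1.54 and 1.49 lay beside 1.62, 1.71 and 1.47 for the vector alone, for an index of 0.13 ± 0.01 (SD, n = 3). E029+ with P017 therefore differed from its vector by less than the spread of the vector's replicates. P018 and P017 lie 328 and 306 kb from E029.

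E065 was high in 1 of its 15 promoter constructs. On the plus strand with P018 its activities were 3.91, 2.68 and 3.20, an index of 1.63 ± 0.29 (SD, n = 3), the second highest of 149. On the minus strand with the same promoter they were 1.05, 1.05 and 1.28, an index of 0.10 ± 0.04 (SD, n = 3). The strands did not overlap, and the minus strand was lower by 1.53 ± 0.32 (SD, n = 3). With the other 4 promoters measured on both strands, the strands differed by 0.14 to 0.45 in size, and the minus strand was the higher one with P013, P016 and P019. The lowest E065 value was that of the plus strand with P013, with activities of 0.912, 0.567 and 0.784 and an index of -0.40 ± 0.28 (SD, n = 3). Over its 5 promoters E065+ had the largest SD of the index, 0.83, rank 1 of 147 oriented cCREs with at least 3 promoters, and over its 10 promoters E065- had 0.23, rank 58, beside a median of 0.20.

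E087 had the fullest set, with 10 promoters on the plus strand and 8 on the minus strand, and it was high with different promoters on each. On the minus strand it was high with P022, P014, P016 and P018. With P022, the Smim7 and Tmem38a promoter 18.9 kb away, the activities were 11.4, 10.3 and 12.8, beside 4.09, 3.97 and 4.37 for the vector. The index was 1.87 ± 0.04 (SD, n = 3). With P014, 350.0 kb away, the activities were 4.72, 3.39 and 3.76, beside 1.29, 1.25 and 1.07 for the vector. The index was 1.86 ± 0.18 (SD, n = 3). With P016, the Klf2 promoter, the activities were 1.96, 2.96 and 3.12, beside 0.815, 1.37 and 1.11 for the vector, and replicate 1 was lowest for both. The index was 1.62 ± 0.13 (SD, n = 3). These indices are against the median construct. Against the vector alone the log2 differences were 1.47 with P022, 1.71 with P014 and 1.29 with P016. E087- was the highest cCRE construct of these 3 vectors, yet 1 of 40 controls with P022, 1 of 40 with P014 and 2 of 40 with P016 were at or above it. With P018 the index was 1.48 ± 0.07 (SD, n = 3), above all 40 controls. With P001, P013, P017 and P019 the minus strand gave 0.01 to 0.54.

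The plus strand of E087 was near or below the median with most of those promoters. Its index with P022 was -0.14, with P014 -0.15 and with P016 -0.25 ± 0.07 (SD, n = 3), the lowest E087 value, from activities of 0.580, 0.845 and 0.758. Its highest was with P021, the Med26 promoter, at 1.70 ± 0.04 (SD, n = 3), from activities of 6.26, 5.74 and 5.95. The vector alone gave 2.58, 2.59 and 2.52, and the log2 difference from it was 1.22. The index was the top of 124 cCRE constructs, and 2 of 32 controls were at or above it. With P009 the index was 0.97 ± 0.27 (SD, n = 3), with 2 of 39 controls at or above it, and the other 5 promoters gave -0.20 to 0.39. The minus strand was not measured Downstream with P009 or P021, so strand and promoter cannot be told apart for these. With the 8 promoters measured on both strands the minus strand was higher each time, by 0.03 with P001 to 2.01 with P014. The difference was 2.01 ± 0.17 with P014, 2.01 ± 0.04 with P022, 1.87 ± 0.15 with P016 and 1.09 ± 0.04 with P018 (SD, n = 3 for each). Differences of 1 or more in size were 4 of 8 for E087 and 6.05% of 612 strand pairs over all cCREs. With P001 and P019 the replicates differed in sign.

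E067 rested on 3 Downstream constructs, each with another promoter. The minus strand with P017, the Eps15l1 promoter 44.7 kb away, gave activities of 2.49, 2.33 and 2.27 and an index of 0.74 ± 0.03 (SD, n = 3), rank 5 of 153 cCRE constructs, with 10 of 40 controls at or above it. The plus strand gave 1.01, 1.07 and 1.08 with P018, an index of 0.02 ± 0.13 (SD, n = 3), and 0.252, 0.321 and 0.279 with P019, an index of -0.34 ± 0.04 (SD, n = 3). Its promoter dependence and its strand dependence cannot be told apart, since no promoter was measured on both strands.

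E103, measured on the minus strand with 8 promoters, was the only one of the 5 that was mostly below the median construct. With P001 its activities were 0.139, 0.128 and 0.144, against 0.299, 0.368 and 0.394 for the vector. The index was -1.05 ± 0.21 (SD, n = 3), and 2 of the 10 P001 controls were as low or lower. Against the mean over these controls it was -0.34, and against the vector alone -1.36. With P016 it was -0.95 ± 0.14 (SD, n = 3), from activities of 0.306, 0.592 and 0.471, and 1 of 40 controls was as low. With P013, P017, P018 and P022 it was between -0.85 and -0.50, and 6, 7, 8 and 11 of 40 controls in these vectors were as low or lower. With P014 it was 0.04 ± 0.06 (SD, n = 3) and with P019 0.06 ± 0.15 (SD, n = 3), where activities of 0.382, 0.409 and 0.337 overlapped the 0.341, 0.450 and 0.377 of the vector. P014 and P019 differ in strength, with vector activities of 1.20 and 0.387.

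P018 was the promoter with which the cCREs spread widest. E029+, E065+ and E087- were the 3 highest of its 149 cCRE constructs, while E087+ stood at 0.39, E065- at 0.10, E067+ at 0.02 and E103- at -0.71, rank 142. With P017 the range was from -0.73 for E103- to 0.74 for E067-.

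The vector without promoter took no part in the spread over promoters, and 5 oriented inserts were measured in it. Its values come from the same Downstream transfections as those that chose the cCREs, so they are not independent of that choice. E029+ gave activities of 0.257, 0.286 and 0.329, where the vector alone gave 0.102, 0.194 and 0.155. It exceeded the mean control by 1.49 (SE 0.29, log2 scale, adjusted p = 4.3e-06, limma), and 38.7% of 137 inserts were called higher. It ranked 14 of 137, and 5 of 39 controls were at or above it. E103- gave 0.0384, 0.0546 and 0.0504, the lowest of all 137 cCRE inserts, and was below the mean control by 1.12 (log2 difference -1.12, SE 0.29, adjusted p = 7.0e-04, limma), where 6.57% of inserts were called lower. Of the 39 controls, 3 were as low or lower, and without replicate 3 the call was lost (adjusted p = 0.090). E065- differed from the mean control by -0.16, E087+ by 0.14 and E087- by 0.16, and none of these passed the test. E087- varied most, with 0.0603 in replicate 1 and 0.153 and 0.165 in the others, and without replicate 1 its difference was 0.46 with an adjusted p of 0.0073 in limma. All inserts share one control mean and the fit gave them one common SE, so these p-values are too small. An insert and the controls also come from separate sub-libraries.

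Upstream, where some promoters were the same as Downstream and many were present in both orientations, none of the constructs reached a boost index of 1. E065 had 20 constructs with 13 promoters, 19 of them on the minus strand. E087 had 26 with 12 promoters, 7 plus and 19 minus, of which 2 minus-strand constructs with P007 were listed at 0 in 1 replicate and not tested. E067 had 4, all plus, E103 only 1, and E029 none. The index ranged from -1.93 to 0.79 with a median of -0.13 over the 49 constructs above 0 in all replicates, beside a median of 0.00447 over all 3685. It was 1 or more in 0 of 49 and in 7.52% of all, and -1 or less in 3 of 49 and in 3.50% of all. Replicate 3 was raised at the lowest activities. With promoters whose basal activity was under 0.5 the median replicate SD of the index was 0.53 over 20 constructs, against 0.14 over the other 29, so differences with weak promoters were poorly resolved.

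Tested against the promoter fragment alone in limma, 10 of the 49 constructs differed at an adjusted p under 0.05, all of them lower, and none was called higher. Over all 3685 pairs 12% were called lower and 4.10% higher. By sample title, single Klf2 fragments and combinations came from separate libraries. A difference from the promoter alone therefore cannot be told apart from a difference between these libraries. The cCRE constructs and the promoters alone were measured in the same transfections, and with the replicate as a block 13 of 49 were called, 12 lower and 1 higher, beside 21.6% lower and 6.62% higher over all. The block added E087+ with P017, E065- with P010 and E067+ with P017, all in plus orientation and lower. It dropped E067+ with P021 (adjusted p = 0.051, limma). The higher call was E087- with P010 in minus orientation, by 0.52 (SE 0.08, adjusted p = 0.035, limma). Its activities were 0.141, 0.0745 and 0.368, where P010 alone gave 0.100, 0.0551 and 0.236. P010 had a basal activity under 0.5 in both orientations. Without the block the SE of E087- with P010 in minus orientation was 0.80 (adjusted p = 0.80, limma). The lowest was E103- in front of P009, with activities of 0.630, 0.324 and 0.534 where P009 alone gave 2.24, 2.03 and 2.02. It was lower by 2.13 (log2 difference -2.13, SE 0.28, adjusted p = 0.012, limma) and was the lowest of the 135 cCRE constructs with that promoter. E065- in front of P001 gave 0.394, 0.357 and 0.459 where P001 alone gave 1.12, 1.18 and 1.17, a log2 difference of -1.53 (SE 0.14, adjusted p = 0.0068, limma), also the lowest of its 126. E087+ in front of P009 gave 1.06, 0.993 and 1.01, a log2 difference of -1.04 (SE 0.11, adjusted p = 0.0083, limma). In each of these the replicates lay below all replicates of the promoter alone. Of the 49, these 3 were also called below the median construct with the same promoter by limma, where 2.42% of all pairs were, and no other was called in either direction.

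The other 7 calls against the promoter alone had smaller differences and were not called against the median construct. E087+ was lower by log2 differences of -0.95 with P021 in minus orientation and -0.72 with P001 in plus orientation. E087- stood at -0.64 with P019 in minus orientation and -0.49 with P001 in plus orientation, E065- at -0.93 with P018 in minus and -0.62 with P009 in plus orientation, and E067+ at -0.65 with P021 in minus orientation. Their adjusted p-values in limma were between 0.018 and 0.049. With a pseudocount of 0.01, E087- with P019 did not pass (adjusted p = 0.051, limma). E087- with P001 had an index above the median construct (0.20). No pair of the whole table, and so 0 of these 10, passed an adjusted p under 0.05 in limma with any 1 replicate left out, when 8 to 21 constructs of the 5 cCREs had an unadjusted p under 0.05.

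Whether the Upstream effect of an oriented cCRE varied over promoters was tested with an F test over its oriented promoters. The 2 orientations of a promoter counted separately, so a difference between them also enters this test. E065- passed (F = 2.12 over 19 oriented promoters, adjusted p = 0.039, moderated variances of limma), with an SD over these of 0.53, while 56.0% of 134 oriented cCREs passed. The call was lost without each replicate in turn, at adjusted p-values of 0.050 to 0.28. E087+ (F = 2.85 over 7 oriented promoters, adjusted p = 0.058), E087- (F = 1.59 over 17, adjusted p = 0.17) and E067+ (F = 1.73 over 4, adjusted p = 0.24) did not pass the same test. With the replicate as a block E087+ passed too (adjusted p = 0.047, F test), as it did without replicate 2 (adjusted p = 0.029), and E087- passed when constructs at 0 were kept with a pseudocount of 0.01 (F = 2.21, adjusted p = 0.033). With only the 10 promoters of the Downstream assay, all 4 passed, with F between 3.88 and 7.54 and adjusted p-values between 2.6e-04 and 0.013 by the same F test, but so did 89.5% of 133 oriented cCREs.

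The promoter with the highest mean Downstream index of a cCRE, among those measured in both positions, was compared Upstream with its other promoters. The choice averaged the Downstream strands measured with a promoter. For E087 this gave P021, measured Downstream on the plus strand alone and Upstream in minus orientation, although the highest single construct was E087- with P022, whose Upstream index was 0.60. Averaged over cCRE strands, its Upstream index was -0.30 against -0.03 over 7 other promoters, a difference of -0.28 (SE 0.08, adjusted p = 0.042, limma), with -0.41, -0.25 and -0.17 in the 3 replicates. With P021 the Upstream index was -0.73 for E087+ and 0.12 for E087-. Of the other promoters, P014, P018 and P022 were measured Upstream with E087- alone. Strand and promoter are therefore mixed in the E087 difference. For E065 it was P018, at -0.47 against -0.19 over 5 others, a difference of -0.28 (SE 0.08, adjusted p = 0.044, limma), with -0.34, -0.39 and -0.10 in the replicates. For E065, the Upstream value is that of the minus strand, while the high Downstream value was that of the plus strand, which was not measured Upstream with P018. For E067 it was P017, with a difference of 0.09 (SE 0.09, adjusted p = 0.50, limma), again on the other strand. Over all cCREs 30.3% of 76 passed, in either direction. Without the replicate block neither E087 (adjusted p = 0.052) nor E065 (adjusted p = 0.089) passed in limma. E087 was also lost without each replicate in turn (adjusted p from 0.054 to 0.52), and E065 without replicate 1 (0.35) and without replicate 2 (0.26).

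The strand difference of E087 pointed the same way Upstream but did not pass its test. With 7 oriented promoters measured on both strands the mean index was -0.40 on the plus and -0.05 on the minus strand. The difference of plus minus minus was -0.60, -0.08 and -0.36 in the replicates, -0.35 on average (SE 0.12, adjusted p = 0.10, limma), and the minus strand was higher with 5 of 7 promoters. It passed for 21% of 62 cCREs, and for E087, of the settings run, only with the median over promoters (-0.39, adjusted p = 0.013, limma) and without replicate 2 (-0.48, adjusted p = 0.0027, limma). E065 could be compared with P017 alone, with a difference of -0.08 (SE 0.08, adjusted p = 0.49, limma).

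The same oriented cCRE and promoter were measured in both positions for 18 pairs, with Upstream values averaged over promoter orientations. How promoter orientation in the Upstream tables relates to the single one used Downstream is not stated in the sources used here. E087- with P022 was above the median in both, at 1.87 ± 0.04 Downstream and 0.60 ± 0.17 Upstream (SD, n = 3), rank 5 of 97. Against P022 alone in minus orientation, its Upstream log2 difference was 0.19 (SE 0.18, adjusted p = 0.62, limma). Upstream it was called neither against the promoter alone nor against the median construct. E087+ with P021 was at 1.70 ± 0.04 Downstream and -0.73 ± 0.11 Upstream (SD, n = 3). Its Upstream activities were 3.18, 4.09 and 3.36, where P021 alone gave 6.88, 7.42 and 6.14. E087- with P014 was at 1.86 Downstream and -0.06 Upstream, and with P018 at 1.48 and 0.10. The sign agreed for 6 of 18 pairs and for 651 of 1039 over all Klf2 cCREs. Signs against the median construct were opposite in all replicates of both positions for 6 of the 18 and 21.5% of all. Pearson's r was 0.12 over these 18, which share fragments and 1 library mix per position, beside 0.46 over the 1039. It was 0.59 over 6 pairs of E087- and -0.57 over 6 pairs of E065-. Downstream values chose the 18, so the lower r is a description. The pairs of E029 and E103 with a high or low Downstream index were not measured Upstream.

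Alone in the Upstream vector, without a promoter fragment, the cCREs had little activity. The geometric mean over replicates was 0.128 for E087-, 0.108 for E065-, 0.0939 for E067+, 0.0907 for E087+, 0.0866 for E103-, 0.0844 for E029+ and 0.0424 for E065+, beside a median of 0.121 over 147 oriented cCREs. E065+ was the lowest of the 147. Its replicates were 0.0245, 0.0182 and 0.171, and replicate 3 was the highest for each of these 7 fragments, so their order is not resolved.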

How the data were processed

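Of the 46 samples, the 3 Downstream and the 3 Klf2, Nanog and negative control Upstream cDNA replicates were used, grouped by title, through the authors' deposited tables. The deposited activities are linear ratios of cDNA to pDNA barcodes per replicate, and the deposited boost index is a log2 value of the authors. The submitters' processing notes name Bowtie2 and mm10. Barcode filters, scaling and depth per construct are not given in the sources used here, so no counting interval is given. Of the value columns, 22 belong to no single sample or repeat others and were not used. The boost index was recomputed and was within 0.001 of the deposited one for all 2364 Downstream and 3685 finite Upstream Klf2 constructs. The 73 with a replicate at 0 were left out.

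The 5 cCREs and the motif list were chosen with earlier results of these data known. For each cCRE, the Downstream pairs named are the highest and lowest, and the Upstream pairs those passing the test; others were chosen after their values were seen. Tests used limma 3.58.1 in R 4.3.3 with Benjamini-Hochberg adjustment at 0.05 over all Klf2 items: a comparison of 3 with 3 log2 activities, 3 replicate differences against 0, and an F test over promoters with moderated variances. Both sides of each comparison come from the same 3 transfections, which pairs them. SDs are over replicate indices. The promoter pair test was tested on simulated data with the spread of the 3685 pairs, and recovered 30.5% of 200 log2 changes of 1 and 57.5% of changes of 2. Of the simulated pair calls, 7.26% to 8.96% were false. Of the calls of the F test, simulated over 134 oriented cCREs, 12.3% to 15.4% were false. Both are above the 5% aimed at. Alternatives were another baseline, the replicate block, a pseudocount of 0.01, fewer promoters and leaving out each replicate. The motifs, planned for the cCREs, were searched in promoter windows, as no cCRE sequence was used here. Python 3.11.15, numpy 2.4.6 and pandas 2.3.3 were used.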

Additional observations from a re-analysis of the deposited data

Results flagged for a closer look

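In 6 of the 18 pairs of a cCRE strand and promoter measured in both positions, all 3 Downstream replicate indices had 1 sign and all 3 Upstream replicate indices the other. This held for 223 of all 1039 Klf2 pairs measured in both positions (21.5%), with Downstream higher in 121 of the 223. The difference between positions was not tested, since they are separate mixes with separate plasmids. In each of the 6, Downstream was higher, for cCREs chosen on their Downstream values. The Downstream boost index exceeded the Upstream one by 2.43 for E087+ with P021, by 1.92 for E087- with P014, by 1.80 for E087+ with P009, by 1.31 for E065- with P001, by 0.58 for E065- with P018 and by 0.52 for E065- with P009. The Downstream values of E087+ with P021 and E087- with P014 are among those for which E087 was chosen. All these signs are against the median construct. Against the vector alone, E065- was lower Downstream too, by log2 differences of -0.43 with P009 and -0.22 with P018. Upstream, E065- stood at -0.62 with P009 and -0.93 with P018 in minus orientation against the promoter alone. The other flagged pairs were above the vector alone Downstream, at 0.32 to 1.71.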

How the results depend on the processing

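The Downstream count of constructs with an index of 1 or more in size, 9 of 51, was 11 against the mean over controls, 12 against the vector alone and 9 without any 1 replicate. E029+ with P017 turned to -0.043 and E103- with P019 to -0.044 against the vector alone, and the latter ranged from -0.016 to 0.14 with a replicate left out. The r over pairs in both positions was 0.12, and -0.12 in 11 pairs with the promoter in the orientation that matches its gene's strand if the tables give genomic strands, which is not stated in the sources used here.

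Upstream pair calls numbered 592 of 3685 in limma and 10 of the 49 of the 5 cCREs. With the replicate block there were 1041 and 13, and against the median construct 267 and 3, where E087- with P001 turned to 0.20. With the pseudocount there were 565 and 9. With a replicate left out there were 0 and 0, and 508 to 1206 of all pairs had an unadjusted p under 0.05. The F test called 75 oriented cCREs and 1 of the 4 of these cCREs. It called 77 and 2 with the replicate block, 69 and 2 with the pseudocount, 119 and 4 with only the 10 Downstream promoters, and 25 to 49 and 0 to 1 with a replicate left out. The preferred promoter test called 23 and 2, with no replicate block 13 and 0 (limma, 2 at an unadjusted p under 0.05), with the second highest promoter 15 and 2, and with a replicate left out 0 to 16 and 0 to 1. E067 ranged from -0.0094 to 0.17 there. The strand test called 13 and 0 (limma, 1 at an unadjusted p under 0.05), 14 and 1 with the median over promoters, and 0 to 23 and 0 to 1 with a replicate left out. In the vector without promoter 62 and 2 were called, 112 and 2 with the replicate block, and 19 to 106 and 1 to 3 with a replicate left out, when E087- ranged from -0.069 to 0.46. The pairing changed no other call of the 5 cCREs than those given here and beside the results. The pair test with 2 replicates has 2 residual degrees of freedom, and depth per construct is unknown.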
